A study of Homo sapiens with 12 samples.

Results

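The family of miR-148 and miR-152 was followed across 12 small RNA libraries through 5 mature entries, chosen by name as the rows hsa-miR-148a-3p, hsa-miR-148a-5p, hsa-miR-148b-3p, hsa-miR-148b-5p and hsa-miR-152-3p of the 2588 listed. All libraries came from HEK293T cells, a human embryonic kidney line carrying the SV40 large T antigen, grown in medium with fetal bovine serum and transfected transiently with Tudor-SN siRNA or with Control (Ctl) siRNA. There were 3 libraries for each siRNA in each of 2 runs. Run 1 used RNA fractions enriched for short RNAs and gel-purified libraries. Run 2 used total RNA, from which miRNA was then enriched, Pippin Prep sizing and another Illumina sequencer. These features therefore changed together and cannot be told apart. The study asked which mature miRNAs are degraded by Tudor-SN (SND1). Its mRNA and protein were not part of the measurements, so the knockdown is taken from the labels.

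miRNAs of this family share a seed, the stretch near the 5′ end that pairs with target mRNAs. They are best known for repressing DNMT1, the methyltransferase that maintains DNA methylation, and also HLA-G. Each hairpin gives a 5p and a 3p arm; the arm that is retained in Argonaute accumulates as the guide, and the other, the passenger, is usually lost. Tudor-SN is an endonuclease for which cleavage of miRNAs at internal CA and UA dinucleotides has been described.

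The sequences, from RefSeq on GRCh38.p14, show why the 3p arms form 1 family and why they can be confused in counting. Capitals mark the seed, bases 2 to 8, and 4 of the 5 members were matched.
miR-148a-3p: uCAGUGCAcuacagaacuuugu
miR-148b-3p: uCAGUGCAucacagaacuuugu
miR-152-3p: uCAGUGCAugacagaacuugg
miR-148b-5p: aAGUUCUGuuauacacucaggc
No other mature miRNA in the RefSeq table had the seed CAGUGCA. Counted from the 5′ end, miR-148a-3p and miR-148b-3p differ by C9U and U10C, and share 20 of 22 bases. Between miR-148a-3p and miR-152-3p the differences are C9U, U10G and U20G over the 21 shared positions. Reads carrying mismatches could thus pass between members, and the handling of such reads is not given in the sources used here, so the separate values of the 3 arms are uncertain. CA or UA dinucleotides lying more than 5 bases from either end numbered 3 in miR-148a-3p, at positions 7, 10 and 12. miR-148b-3p and miR-148b-5p also had 3 each, and miR-152-3p had 2. Such a dinucleotide was not particular to the family. It was present in 82.8% of the 198 miRNAs tested in run 1 whose sequence was at hand. The median over these was 1 such dinucleotide.

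The arms of miR-148a lie in 1 hairpin, shown here with the 3p arm in capitals (positions 44 to 65), because its arms behaved differently.
MIR148A: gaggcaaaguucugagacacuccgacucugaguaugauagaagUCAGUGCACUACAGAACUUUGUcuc
It maps to chr7:25949919-25949986 on the minus strand, and no gene of GENCODE release 29 overlapped it. MIR148B maps to chr12:54337216-54337314 on the plus strand, in an intron of COPZ1. MIR152 maps to chr17:48037161-48037247 on the minus strand, in an intron of COPZ2. COPZ1 and COPZ2 encode coatomer zeta subunits of vesicle transport.

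Depth and cell identity set the following frame. Counts assigned to miRNAs ran from 222452 to 1092713 per library in run 1 and from 927727 to 3140214 in run 2. Every Tudor-SN library held more counts than every control of its run, and the part of depth in the results was not tested. A count of 0 allows up to 3 counts, that is 2.75 to 13.5 CPM (counts scaled to a common library size) for run 1 libraries and 0.955 to 3.23 CPM for run 2 libraries. Floors and intervals cover counting error only. miR-10a, miR-10b, miR-196a and miR-196b, abundant in HEK293T, together held a smaller part of the counts with Tudor-SN siRNA. The sum was 72.6% to 74.0% in controls against 69.0% to 69.4% in run 1, and 51.7% to 54.7% against 40.6% to 45.8% in run 2. Only miR-10a-5p was lower without overlap in both runs. It held 55.8% to 57.5% in controls against 48.1% to 48.8% in run 1, and 34.3% to 36.1% against 24.3% to 27.2% in run 2. miR-10b-5p was higher in run 1, at 15.6% to 17.6% in controls against 19.98% to 20.4%, and overlapped in run 2. miR-196a-5p and miR-196b-5p overlapped in both runs. Of 12 markers of other cell types, 5 or 6 were at 0 per group in run 1 and 3 or 4 in run 2. The blood markers miR-223-3p and miR-142-3p were among them throughout. Another blood marker, miR-486-5p, was present in every group. It held 0.0422% to 0.0508% of counts in controls against 0.0491% to 0.0580% in run 1. In run 2 it held 0.247% to 0.261% against 0.310% to 0.322%. The summed share of the 12 markers was higher with Tudor-SN siRNA in both runs. It was 0.183% to 0.212% in controls against 0.233% to 0.288% in run 1, and 0.337% to 0.347% against 0.412% to 0.429% in run 2. The largest part in run 1 was the neuronal marker miR-9-5p, at 0.125% to 0.151% in controls against 0.150% to 0.200%. Not every marker was higher. miR-143-3p overlapped in run 1, at 0.00703% to 0.00853% in controls against 0.00440% to 0.00869%. The part of either marker list in the results was not tested. In bulk RNA, less miRNA per cell and fewer cells carrying it cannot be told apart.

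The passenger arm miR-148a-5p was lower with Tudor-SN siRNA in both runs, at log2 fold changes of -0.96 and -0.47, while its abundant partner miR-148a-3p was at -0.20 and 0.05. miR-152-3p was also lower with Tudor-SN siRNA in run 1, the only run in which it could be tested. Its raw counts there nearly equalled those of miR-148a-5p in each library, and whether these entries count separate reads was not tested. miR-148b-3p was higher in run 2 alone, and miR-148b-5p was too rare for a difference to be seen. Levels below are CPM scaled by TMM within a run, so that higher and lower are relative to the other miRNAs. Tests are edgeR quasi-likelihood tests with Benjamini-Hochberg adjustment over all miRNAs tested in the comparison and a threshold of 0.05. In run 1, 3 of the 4 members tested passed, all lower, where 44.2% of the 224 miRNAs tested passed in either direction and 22.8% were lower. In run 2, 2 of the 4 tested passed, where 50.9% of 383 did, 92 higher and 103 lower. With so many miRNAs passing, a call does not by itself set a member apart.

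**Figure D1:**
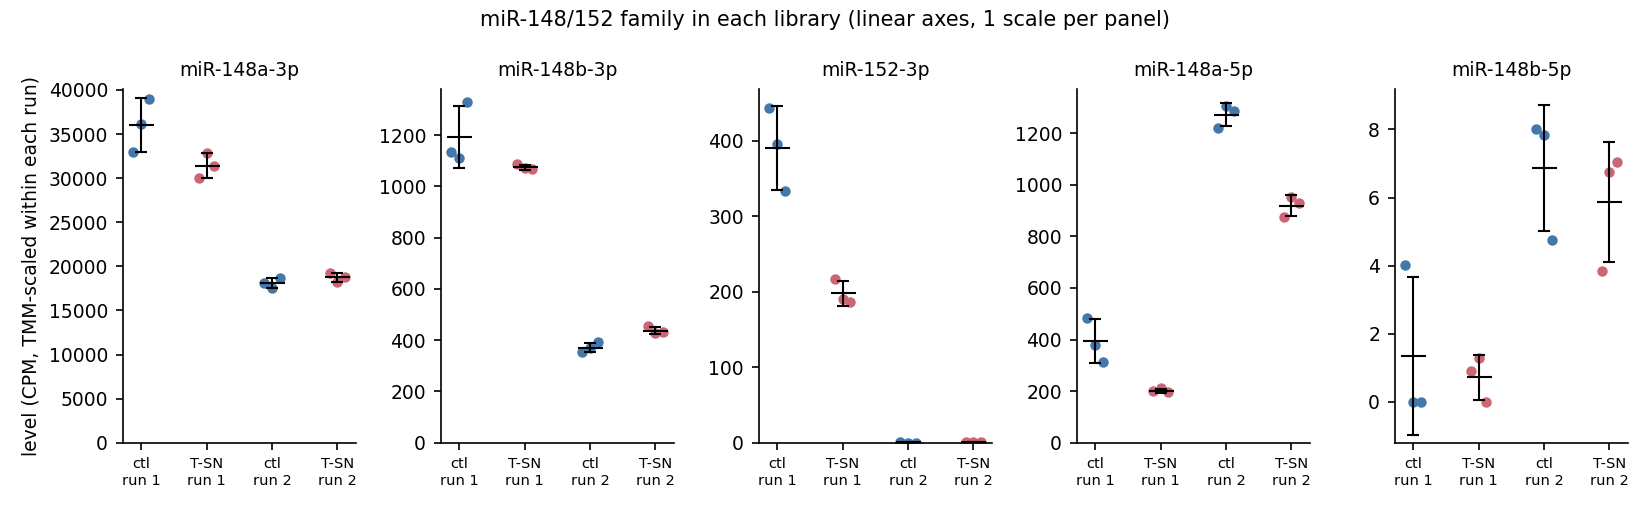
CPM of each member in every library (points), with mean and SD of 3 libraries (bars), for control (ctl) and Tudor-SN (T-SN) siRNA in runs 1 and 2; each panel has its own linear axis. miR-148a-5p is lower with Tudor-SN siRNA in both runs, and miR-152-3p falls to the bottom of its axis in run 2.

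miR-148a-3p, the dominant guide of the family, had rank 4 of all entries by mean CPM in run 1 and rank 7 in run 2. In run 1 its level was 32912, 36105 and 38985 CPM in control replicates 1 to 3 and 30029, 32863 and 31391 CPM in Tudor-SN replicates 1 to 3. The highest Tudor-SN library lay just under the lowest control, so the groups did not overlap. All 4 members tested in run 1 lay lower in this way, as did 29.9% of all tested miRNAs, and 52.7% did not overlap in either direction. The difference was -0.20 on the log2 scale (edgeR SE 0.07, with an adjusted p of 0.018). This call was lost under RLE scaling (-0.16), in DESeq2 (-0.16), in limma (-0.07) and without a filter on low counts (-0.0046). It was also lost without control replicate 2 (-0.19) or control replicate 3 (-0.12). The median over all miRNAs was -0.05 in the fit above. It was -0.01 under RLE scaling, -0.0041 in DESeq2, 0.09 in limma and 0.14 without the filter. In run 2 the level was 18103, 17601 and 18663 CPM in controls and 19273, 18179.5 and 18794 CPM with Tudor-SN siRNA. Those groups overlapped, and the difference was 0.05 on the log2 scale (edgeR SE 0.05, with an adjusted p of 0.44). With library size alone (0.16) or no filter (0.17) it passed. The median over all miRNAs was 0.08 and 0.15 in those settings, against -0.02 in the fit above.

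miR-148b-3p, the minor paralog that also represses DNMT1, passed as higher in run 2 and did not pass in run 1. The difference between the runs itself is given below with the interaction test. In run 1 it was at 1133, 1112 and 1331 CPM in controls and at 1087, 1072 and 1068 CPM with Tudor-SN siRNA. Every Tudor-SN value lay below every control, but the log2 fold change of -0.14 (SE 0.13) did not pass (adjusted p = 0.39 by edgeR). It did pass under upper quartile scaling (-0.34), a setting under which the median over all miRNAs fell from -0.05 to -0.24. In run 2 the levels were 353, 369 and 391 CPM in controls against 455, 428 and 430.4 CPM. Every Tudor-SN library lay above every control, and 59.0% of tested miRNAs did not overlap between the groups of run 2. The rise was 0.24 on the log2 scale (SE 0.07, adjusted p = 0.015 by edgeR). Leaving out control replicate 1 (0.20), control replicate 2 (0.23) or Tudor-SN replicate 1 (0.21) ended this call.

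miR-152-3p, the third guide with the shared seed, was detected almost only in run 1. Its level there was 444, 395 and 333 CPM in controls and 217, 190.0 and 186 CPM with Tudor-SN siRNA, from 288 and 516 raw counts in all. The groups were well apart, and the difference was -0.98 on the log2 scale (edgeR SE 0.16, with an adjusted p of 2.4e-08). In run 2 the raw counts were 1, 0 and 0 in controls and 5, 4 and 1 with Tudor-SN siRNA. All lay at or near the floor, and the entry was too rare to be tested.

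miR-148a-5p, the passenger arm, had raw counts of 120, 103 and 67 in run 1 controls and 225, 164 and 131 in Tudor-SN libraries, or 484, 380.5 and 314 CPM against 201, 210.5 and 195 CPM. In run 2 it had 1067, 2162 and 1354 raw counts in controls and 2944, 2823 and 1583 with Tudor-SN siRNA, or 1221, 1305 and 1286 CPM against 873, 953 and 929 CPM. Each Tudor-SN library lay below each control of its run. The decrease was -0.96 (SE 0.16, adjusted p = 3.5e-08 by edgeR) in run 1 and -0.47 (SE 0.06, adjusted p = 8.9e-06 by edgeR) in run 2 on the log2 scale. It passed in every scaling, tool, filter and leave-one-out setting tried within each run. In the authors' deposited table its log2 fold change was -0.82 in run 1 (adjusted p = 4.2e-05) and -0.39 in run 2 (adjusted p = 7.2e-07). For miR-148a-3p in run 1 the authors had -0.07, which did not pass (adjusted p = 0.64). They had miR-152-3p at -0.84 in run 1 (adjusted p = 1.2e-05). For run 2 they had miR-152-3p at 0.73 with no adjusted p, and miR-148b-3p at 0.31 (adjusted p = 0.0020).

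miR-148b-5p, the passenger of miR-148b, had raw counts of 1, 0 and 0 in run 1 controls and 1, 1 and 0 with Tudor-SN siRNA, at or under the floor. In run 2 the raw counts were 7, 13 and 5 against 13, 20 and 12, or 8.01, 7.85 and 4.75 CPM against 3.85, 6.75 and 7.05 CPM. The groups overlapped, and a log2 difference of -0.30 with an SE of 0.38 was not detectable at this depth (adjusted p = 0.53 by edgeR).

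**Figure D2:**
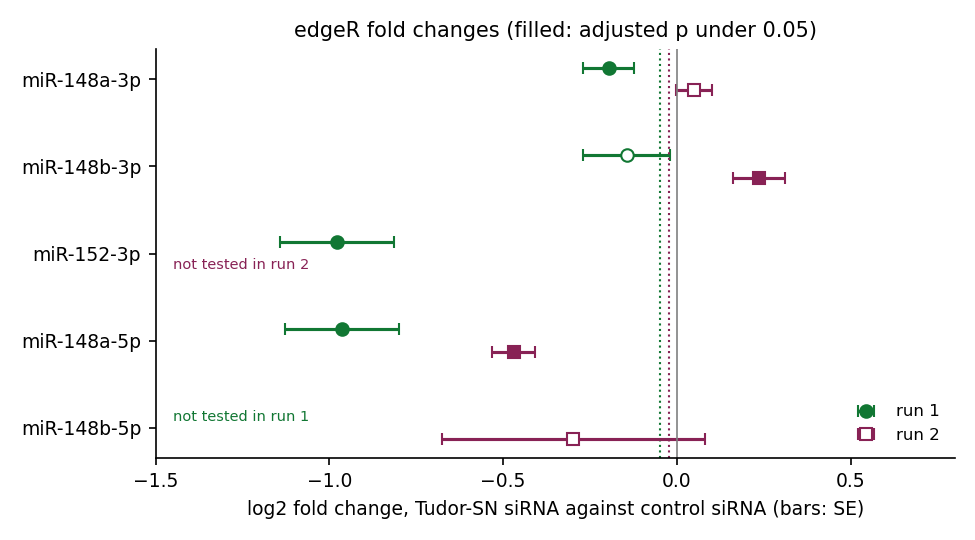
Log2 fold change of each member, Tudor-SN against control siRNA, by edgeR in run 1 (circles) and run 2 (squares), with SE; filled symbols have an adjusted p under 0.05 and dotted lines mark the median of all tested miRNAs. The 5p arm of miR-148a is below 0 in both runs, and the 3p arms of miR-148a and miR-148b stay within 0.24 of 0.

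An effect common to both runs was tested over the 12 libraries with a term for the run. In this fit 49.5% of 378 tested miRNAs passed, 102 higher and 85 lower, and 2 members did. miR-148a-5p was lower at -0.56 (SE 0.10, adjusted p = 9.0e-05 by edgeR). miR-152-3p was at -0.80 (SE 0.20, adjusted p = 0.0018 by edgeR), a value carried by run 1, where nearly all its counts lie. That call was lost without control replicate 1 (-0.45) or control replicate 2 (-0.48), and without Tudor-SN replicate 2 (-0.47) or Tudor-SN replicate 3 (-0.42), all of run 1, and limma turned its sign (0.094). miR-148a-3p at 0.02 (SE 0.07) did not pass. It was higher and passed in DESeq2 (0.15), and its sign turned with TMM within each run (-0.024) and with library size alone (-0.0053). miR-148b-3p at 0.15 (SE 0.09) did not pass either. It was higher and passed under RLE scaling (0.27), for TMM without miR-10a-5p (0.21), without a filter (0.29) and in DESeq2 (0.27). The median over all miRNAs was 0.04 in the main fit, and 0.13, 0.06, 0.19 and 0.13 in those settings. miR-148b-3p also passed without control replicate 3 (0.27) or Tudor-SN replicate 1 (0.22), 2 (0.24) or 3 (0.26) of run 1. Summed to 1 row before the fit, the 3p arms were at -0.21 (SE 0.07) in run 1 (adjusted p = 0.011 by edgeR) and at 0.05 (SE 0.05) in run 2 (adjusted p = 0.42).

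Whether the runs differed in the siRNA effect was tested by an interaction term, which passed for 8.99% of miRNAs, 21 higher and 13 lower. That balance turned with the scaling, to 10 higher and 34 lower under RLE scaling, 14 and 20 under upper quartile scaling, 9 and 52 for TMM without miR-10a-5p, 13 and 31 for TMM within each run, and 10 and 33 in DESeq2. miR-148a-5p had a run 2 minus run 1 difference of 0.55 (SE 0.17, adjusted p = 0.033 by edgeR), which is a smaller decrease in run 2. miR-148b-3p had a difference of 0.43 (SE 0.14, adjusted p = 0.049 by edgeR). The median of this term over all tested miRNAs was 0.19, and relative to it the values were 0.36 and 0.24. With TMM computed within each run the median was 0.03 and neither passed, at 0.39 (adjusted p = 0.12 by edgeR) and 0.27 (adjusted p = 0.22 by edgeR). Leaving out control replicate 1 of run 1 brought the miR-148a-5p term to -0.015, with the median of all miRNAs at -0.24. Members that did not pass were miR-148a-3p at 0.30 (SE 0.10, adjusted p = 0.058 by edgeR) and miR-152-3p at 2.81 (SE 1.01, adjusted p = 0.074 by edgeR). The miR-152-3p term rests on run 2 counts at or near the floor.

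Shares of counts within a library compare arms and paralogs without any scaling between libraries. Of the miR-148a counts, the 5p arm made up 1.45%, 1.04% and 0.799% in run 1 controls and 0.665%, 0.636% and 0.618% in Tudor-SN libraries. In run 2 the 5p share was 6.32%, 6.90% and 6.45% in controls and 4.33%, 4.98% and 4.71% with Tudor-SN siRNA. All 6 Tudor-SN libraries thus lay below the controls of their run. The difference averaged -1.17 percentage points over the runs (exact permutation test within runs, two-sided, p = 0.005, the smallest p its 400 arrangements allow; adjusted over the 5 shares tested, p = 0.025). Within 1 run the smallest possible p is 0.1, and both runs gave that value, with differences of -0.457 and -1.88 points.

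**Figure D3:**
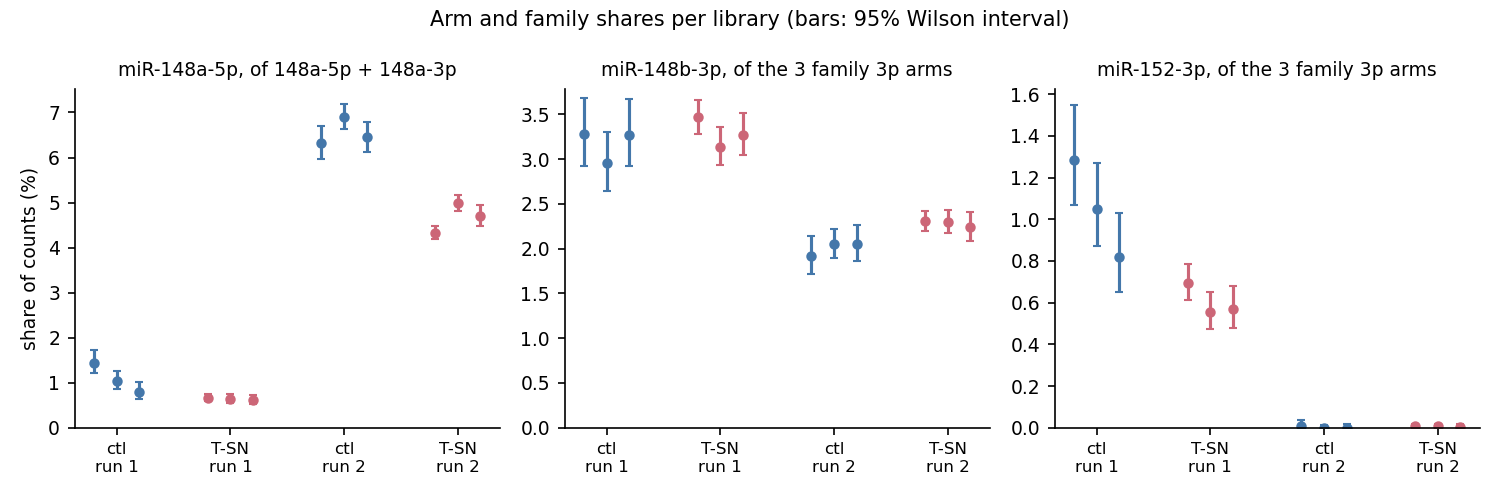
Shares of counts in each library, in percent, with 95% Wilson intervals, for control (ctl) and Tudor-SN (T-SN) siRNA in runs 1 and 2. The miR-148a-5p share is lower in all 6 Tudor-SN libraries than in the controls of the same run, and the miR-152-3p share is near 0 in run 2.

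Among the 3p arms miR-148a-3p held 95.4% to 96.3% in run 1 and 97.7% to 98.1% in run 2. The order was miR-148a-3p, miR-148b-3p and miR-152-3p in all 12 libraries. miR-148b-3p held 3.17% ± 0.187 in controls and 3.29% ± 0.165 with Tudor-SN siRNA in run 1, and 2.01% ± 0.0804 against 2.28% ± 0.0372 in run 2 (SD, n = 3). Its average difference of 0.198 points did not pass after adjustment (exact permutation test, p = 0.03, adjusted p = 0.075). miR-152-3p held 1.05% ± 0.234 against 0.607% ± 0.0748 in run 1, and 0.00207% ± 0.00358 against 0.00594% ± 0.00250 in run 2 (exact permutation test over both runs, adjusted p = 0.16). For miR-148a-3p the average difference was 0.0232 points (exact permutation test, adjusted p = 0.91). The 5p share of miR-148b in run 2 was 1.83% ± 0.552 in controls and 1.33% ± 0.429 with Tudor-SN siRNA, and its difference over both runs was -0.274 points (exact permutation test, adjusted p = 0.33).

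A lower share of the minor arm was seen at other hairpins too. In run 1, 35 hairpins had both arms tested, and in 25.7% of them the minor arm's share was lower in every Tudor-SN library than in every control, against 3 hairpins where it was higher. In run 2 this was 26.7% of 86 hairpins, against 16 where it was higher. The log2 fold change of the minor arm minus that of the major arm had a median of -0.19 in run 1 and -0.14 in run 2. miR-148a was at -0.77 and -0.52, near the lower quartiles of -0.77 and -0.54, with 9 and 24 hairpins lower. Its minor arm was therefore lowered against the major arm more than at most hairpins, but was not the extreme. For this log2 difference, divergence in the other direction was not counted.

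**Figure D4:**
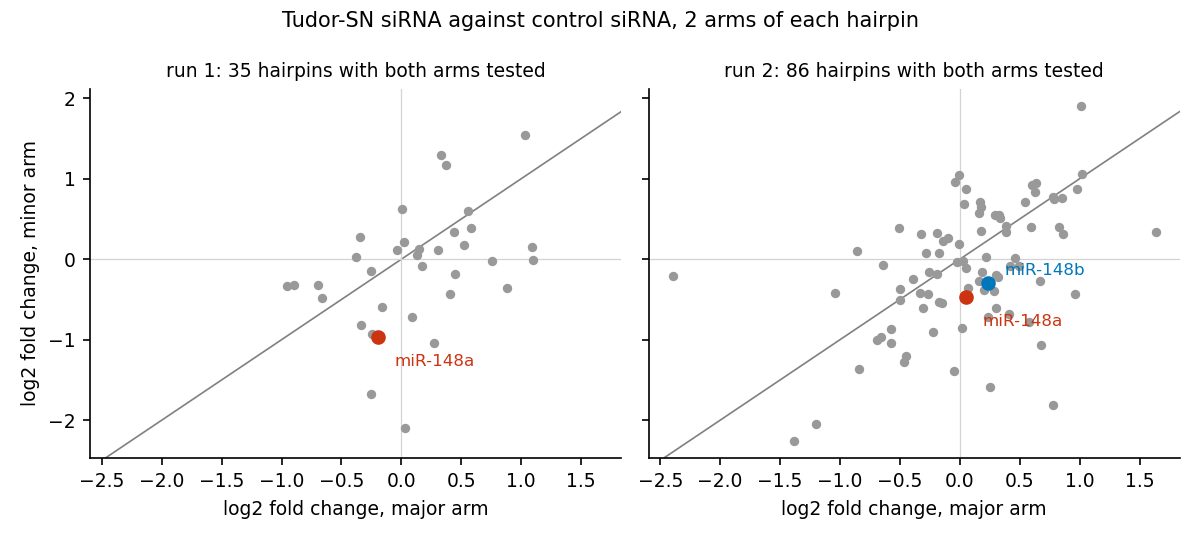
Log2 fold change of the minor arm against that of the major arm for each hairpin with both arms tested (35 in run 1, 86 in run 2); the diagonal marks equal change. miR-148a lies below the diagonal in both runs, and miR-148b, tested for both arms in run 2, lies below it there.

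Levels of the family also differed between the runs. Over the 6 control libraries, fitted alone after these counts had been seen, 80.1% of 302 tested miRNAs differed between runs by edgeR. miR-148a-3p was lower in run 2 by 2.88-fold, or -1.52 on the log2 scale (edgeR SE 0.07, with an adjusted p of 6.6e-18), and miR-148b-3p was lower by 4.63-fold, at -2.21 (SE 0.10, adjusted p = 1.7e-17 by edgeR). miR-148a-5p was higher in run 2 by 2.22-fold, at 1.15 (SE 0.12, adjusted p = 7.8e-10 by edgeR). The arms of 1 hairpin thus moved in opposite directions between runs, in all scalings tried.

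By assigned counts, the leading miR-152 entry was the 3p arm in run 1 and the 5p arm in run 2. Run 1 controls held 288 counts of miR-152-3p and 0 of miR-152-5p, whereas run 2 controls held 1 and 46. Per count assigned, miR-152-3p was 1441 times higher in run 1 controls, with a 95% counting interval of 257 to 57108, and 156 times higher in run 1 Tudor-SN libraries, with an interval of 84.0 to 327. In run 2, miR-152-5p had raw counts of 17, 15 and 14 in controls and 23, 18 and 14 with Tudor-SN siRNA, and its log2 fold change was -0.92 (SE 0.33, adjusted p = 0.028 by edgeR).

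In run 1, miR-152-3p and miR-148a-5p also had nearly equal raw counts in each library. The ratio of the former to the latter lay between 0.902 and 1.08 in all 6 libraries. In run 2 the ratio was at most 0.0017. Both entries fell by similar amounts in run 1, as given above. They come from different chromosomes, and the source of the reads was not tested.

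**Figure D5:**
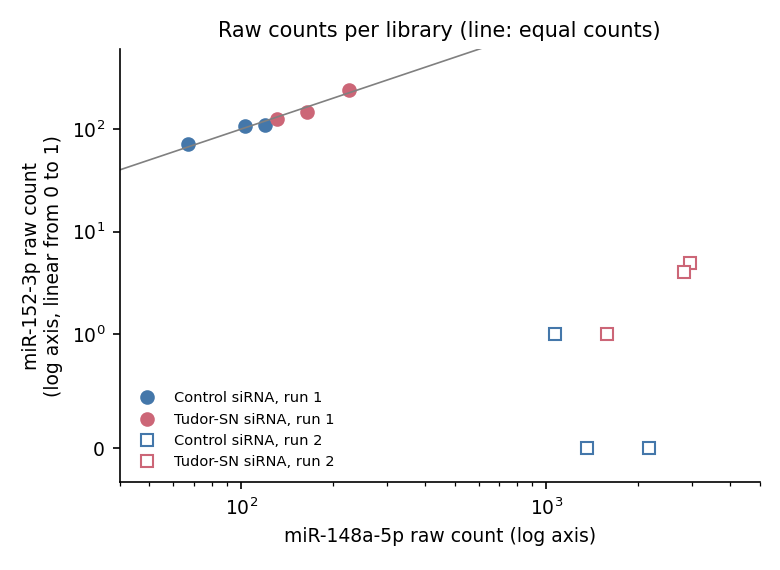
Raw counts of miR-152-3p against miR-148a-5p in each of the 12 libraries, on log axes (the vertical axis is linear from 0 to 1), with the line of equal counts. The 6 libraries of run 1 lie along the line, and those of run 2 lie far below it, with 5 or fewer counts of miR-152-3p.

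Other repressors of DNA methyltransferases were followed as a list of 10. In run 1, 2 of 7 tested were higher and 0 lower, where 48 of all 224 miRNAs were higher, and the median log2 fold change was -0.05, the same as over all tested miRNAs. In run 2, 4 of 9 were higher and 0 lower, where 92 of all 383 were higher, with a median of 0.30 against -0.02 over all. Over both runs, 3 of 9 were higher and 0 lower, where 102 of 378 were higher, with a median of 0.32 against 0.04. miR-342-3p, which targets DNMT1, rose from 635 ± 120 to 1339 ± 131 CPM in run 1 (SD, n = 3) and by 0.66 on the log2 scale (SE 0.16) in run 2. miR-126-3p, an endothelial miRNA that is also one of the markers of other cell types above, rose by 1.54 (SE 0.24) and 1.05 (SE 0.13). miR-101-3p rose in run 2 by 0.55 (SE 0.10) and was at -0.20 (SE 0.23) in run 1. miR-143-3p, known from smooth muscle and likewise a marker, rose in run 2 by 0.85 (SE 0.34) from 7.12 CPM, and was at -0.17 (SE 0.27) in run 1. The miR-29 members, which target DNMT3A and DNMT3B, did not pass in any run in which they were tested. miR-29b-3p was not tested in run 1.

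Likeness of pattern was measured as Pearson correlation of log2 CPM over the 12 libraries after the mean of each run was removed, among 377 other miRNAs. The libraries share siRNA group and depth, so the values are descriptions only. miR-148a-3p was most like miR-148b-3p (0.86), followed by miR-3065-5p (0.79) and miR-424-5p (0.78). miR-148a-5p was most like miR-4661-3p (0.93), miR-629-5p (0.92) and miR-181a-3p (0.92). For miR-148b-3p the nearest were miR-140-3p (0.90), miR-27b-3p (0.89) and miR-101-3p (0.87). For miR-152-3p they were miR-619-5p (0.78), miR-1304-3p (0.75) and miR-1246 (0.72), over values that are near 0 in run 2.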

How the data were processed

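The authors deposited 1 table with raw counts per mature miRNA, which served all tests, for 12 libraries. Its normalized signal is each count divided by 1 DESeq size factor per library, as the deposited columns show, and was used only in an alternative. The deposited RPM values were read only as a check of totals. The authors' adjusted p-value and log2 fold change per run are quoted only in the paragraph on miR-148a-5p. Per the submitters' processing notes, both runs used Bowtie2, and run 2 also cutadapt, DESeq and DESeq2; no versions are named. For build, annotation and multiply matching reads: not given in the sources used here.

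Counts were fitted with edgeR 4.0.16 in R 4.3.3, with TMM and filterByExpr (minimum count 10, minimum total 15). Alternatives used DESeq2 1.42.0, limma 3.58.1 on log2 of the authors' values plus 1, other scalings, no filter, a replicate block and left-out libraries. Scripts were tested on simulated data. Shares were tested in Python 3.11.15. Members and lists were chosen with earlier results of these data known. The named miRNAs are all 5 members, miR-152-5p, passing members of the list of methyltransferase repressors and the 3 nearest in pattern. The fit of control libraries between runs, and TMM within each run, were chosen after seeing the data. The labels do not say that replicates were separate cultures, so p-values cover the spread among these 12 libraries, possibly a technical one.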

Additional observations from a re-analysis of the deposited data

Results flagged for a closer look

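The interaction test found that the siRNA effect on miR-148a-5p differed between runs, by 0.55 on the log2 scale (run 2 minus run 1), and likewise that on miR-148b-3p, by 0.43. The median over all tested miRNAs was 0.19, and relative to it the differences were 0.36 and 0.24. Neither passed with TMM computed within each run.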

How the results depend on the processing

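Groups of 3 libraries, few counts of miR-148b-5p and of miR-152-3p in run 2, and runs that differ in RNA and sequencer limit these results. The number of members passing was 3 in run 1 (2 to 4 over the other settings, 2 to 3 with 1 library left out). In run 2 it was 2, with 3 under library size alone and no filter, 1 with the 3p arms summed, which leaves fewer entries, and 1 to 2 with 1 library left out. Over both runs it was 2, with 4 in DESeq2, 3 under RLE scaling, TMM without miR-10a-5p and no filter, 1 in limma, 1 with the 3p arms summed, and 1 to 3 with 1 library left out. Members differing between runs numbered 2, but 0 under RLE scaling, upper quartile scaling, TMM without miR-10a-5p, no filter, DESeq2, limma and TMM within each run, 3 under library size alone, and 0 to 4 with 1 library left out. All miRNAs passing that interaction test numbered 34 by edgeR, 61 for TMM without miR-10a-5p, 18 in limma, 55 with the replicate block and 23 to 74 with 1 library left out. With 1 library left out the interaction value ran from -0.19 to 0.51 for miR-148a-3p and from -0.015 to 0.75 for miR-148a-5p. For miR-148b-3p it ran from -0.080 to 0.65, and for miR-152-3p from 2.13 to 4.65. TMM without miR-10a-5p gave -0.085 for miR-148a-3p.

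Signs also turned for miR-148b-3p in run 1 with no filter (0.049), for miR-148a-3p over both runs with library size alone (-0.0053) and TMM within each run (-0.024), and for miR-152-3p over both runs in limma (0.094). The median over all miRNAs was 0.14 in run 1 with no filter, against -0.05 in the main fit. Over both runs it was 0.0094 with library size alone, -0.035 with TMM within each run and 0.095 in limma, against 0.04. The cause was not tested. For the miR-148a 5p share, adjustment over the 5 shares put the p at 0.16 with the replicate block (-1.17 points), 0.25 in run 1 alone (-0.457) and 0.17 in run 2 alone (-1.88), where the arrangements are too few to pass. With 1 library left out it was -1.24 to -1.08 points, and the adjusted p reached 0.05 without any one of the run 1 Tudor-SN libraries. The miR-148a-3p share of the 3p arms turned to -0.277 points in run 2 alone and -0.035 as log2 odds, with -0.0637 to 0.0883 points when 1 library was left out. The miR-152-3p share turned to 0.00388 points in run 2 alone and 0.11 as log2 odds. Same-numbered control and Tudor-SN libraries had deviations correlated at 0.0439 to 0.143, and not every pair was over 0.1, the level set for taking the labels' numbers as pairs. All 6 correlations were above 0 and 10 of 12 libraries were closest to their own number, which is a hint of pairing from the data that the labels do not state. The replicate block left the number of members passing at 3, 2 and 2 in run 1, run 2 and both runs. It made 3 members pass the interaction test, adding miR-148a-3p (0.30).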
